A study of Mus musculus with 6 samples.

Results

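Mitochondrial ribosomal protein genes were examined in nuclei sorted from the medial prefrontal cortex of mice given CFA (complete Freund's adjuvant, an agent that causes lasting inflammation and pain) or saline. They were taken as every gene of the count table whose symbol was Mrpl or Mrps followed by a number, without pseudogenes, which gave 77 of 24421 genes. The CFA group had 3 libraries and the saline group had 3. All mice carried Foxp2-Cre and received, in the medial prefrontal cortex of both hemispheres, an adeno-associated virus encoding GFP fused to KASH, a domain that anchors proteins in the nuclear envelope. Tissue was taken 4 weeks after the virus, and each library was made from 10000 sorted nuclei. The sorted population is whatever Foxp2-Cre labels in this region, and Foxp2 marks corticothalamic neurons of the deep layers. The sources used here do not give the age and sex of the mice or the time between CFA or saline and collection. Within a group the libraries are numbered, but separate animals are not stated, so p-values cover only the variation among these libraries, part of which may be technical.

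Mitochondria have their own ribosome, built from RNAs encoded in mitochondrial DNA and from proteins that are all encoded in the nucleus, made in the cytosol and imported. Its large (Mrpl) and small (Mrps) subunits translate only a small set of messages, which encode core subunits of the respiratory chain and of ATP synthase. Many of its proteins descend from bacterial ribosomal proteins and carry their numbers, while others were added in mitochondria. Neurons depend heavily on oxidative phosphorylation, and inherited defects of this ribosome or of its partner enzymes often affect the brain and the heart. By structure, 50 of the 77 genes encode large-subunit proteins and 26 small-subunit proteins. These counts place Mrps18a and Mrps30 in the large subunit, where their products are found. Mrps36 was placed in neither, because its product is now known as a subunit of the 2-oxoglutarate dehydrogenase complex. The numbers of 44 genes are those of bacterial ribosomal proteins, and 33 carry mitochondrial numbers.

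The genes were scattered over 17 chromosomes, with at most 10 on one of them and none on a sex chromosome. Their models were compact. The median exon length was 1053 bases, against 2191 bases over all genes of the table, and the median span was 7306 bases, against 14540 bases. A gene on the opposite strand started within 1000 bases upstream for 27 members (35.1%), against 9.26% of 24277 gene models on mm10. Some of these head-to-head neighbours also serve mitochondria. Mrps11 and Mrpl46, a small- and a large-subunit gene, lie 42 bases apart start to start on chromosome 7. Mrps12 lies 187 bases from Sars2, the mitochondrial seryl-tRNA synthetase. Mrpl43 lies 116 bases from Peo1, the Twinkle helicase that replicates mitochondrial DNA. Mrpl47 lies 308 bases from Ndufb5, a complex I subunit, and Mrps27 lies 108 bases from Ptcd2, a pentatricopeptide-repeat protein of mitochondrial RNA processing.

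Because such pairs share the DNA between their starts, the stretch is shown for 5 members, read 5′ to 3′ on the member's own strand and ending at the base before its start. Mrps11, Mrpl43 and Mrps27 stand for pairs of mitochondrial genes, Mrps18c for the paralogs compared later, and Mrpl32 for a stretch with several NRF1 motifs. Sequences are from RefSeq (GRCm38.p6). Capitals mark exact matches, on either strand, to the ETS family core CCGGAAG or to the NRF1 motif GCGCANGCG. ETS factors of the GABP type and NRF1 are known regulators of nuclear genes for mitochondrial proteins.
Mrps11 (from Mrpl46, chr7:78783090-78783130, + strand): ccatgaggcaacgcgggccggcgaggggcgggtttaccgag
Mrpl43 (from Peo1, chr19:45006443-45006557, - strand): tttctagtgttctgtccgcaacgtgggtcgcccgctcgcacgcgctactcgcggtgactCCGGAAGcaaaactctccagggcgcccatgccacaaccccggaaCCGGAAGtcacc
Mrps27 (from Ptcd2, chr13:99344679-99344785, + strand): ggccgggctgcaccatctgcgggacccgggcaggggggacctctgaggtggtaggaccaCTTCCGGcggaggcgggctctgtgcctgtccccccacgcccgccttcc
Mrps18c (from Helq, chr5:100798601-100798758, + strand): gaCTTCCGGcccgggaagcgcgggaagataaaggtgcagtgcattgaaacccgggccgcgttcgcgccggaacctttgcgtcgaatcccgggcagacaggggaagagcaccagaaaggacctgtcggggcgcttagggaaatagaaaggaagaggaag
Mrpl32 (from Psma2, chr13:14613038-14613241, - strand): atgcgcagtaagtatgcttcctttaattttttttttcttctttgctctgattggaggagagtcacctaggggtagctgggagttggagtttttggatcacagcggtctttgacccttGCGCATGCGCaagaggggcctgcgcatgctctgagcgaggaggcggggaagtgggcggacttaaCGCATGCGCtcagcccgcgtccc
The stretch between Mrps11 and Mrpl46 held neither motif, that of Mrpl43 held the ETS core at 2 places, and that of Mrpl32 held NRF1 matches in 2 runs. These 5 do not stand for all pairs, since most of the stretches that the promoter windows hold had neither motif. Among those without were the stretches of Mrps12 and Mrpl47, which the windows hold only in part. Helq, the neighbour of Mrps18c, encodes a DNA helicase, and Psma2, the neighbour of Mrpl32, encodes a proteasome subunit.

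Promoter windows of 250 bases before to 50 bases after the start were in RefSeq for 68 of the 77 genes. For a member the window nearest to the start of its gene model was used, at most 10282 bases away (Mrps23). For all genes the first window listed per gene was used, so the shares compared rest on unlike choices of window. The ETS core occurred on either strand in 24 of the 68 (35.3%), against 9.12% of 27025 promoters of all genes. NRF1 motifs occurred in 16 (23.5%), against 6.47%. The YY1 motif AAGATGGCG, that of a zinc-finger factor, occurred in 8 (11.8%), against 1.495%. The SP1 box GGGCGG was found in 34 (50%), against 35.9%, and the CCAAT box CCAAT in 27 (39.7%), against 37.9%. The TATA box TATAAA was in 4 member promoters (5.88%), against 14.2% of all promoters. Median GC content was 58.2% in member promoters and 52.7% in all, and no allowance for it was made in these shares. An NRF1 palindrome matches on both strands. By their letters an ETS core can run into a YY1 motif, and a YY1 motif into an NRF1 motif, so one stretch can count for both. A match is a description of letters and was not tested as a site of binding.

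**Figure D1:**
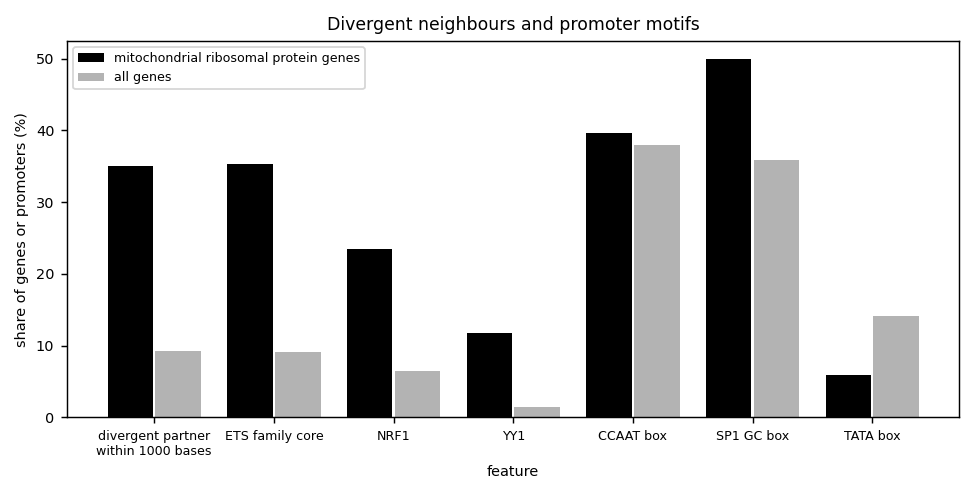
Percent of mitochondrial ribosomal protein genes (left bar of each pair) and of all genes (right bar) with a head-to-head neighbour within 1000 bases or with a motif in the 300-base promoter window, from 77 and 24277 gene models and from 68 and 27025 promoters. The ETS core is present in 35.3% of member promoters against 9.12% of all, while CCAAT is present in 39.7% against 37.9%.

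Total counts were 9673038 to 11850741 per library, and the limit allowed by a count of 0 (3 counts) was 0.25 to 0.304 CPM (library-scaled counts, with TMM factors), for counting error only. All 77 members were far above it, with 99 counts (Mrpl52, large subunit) to 2861 counts (Mrpl41, large subunit) in a library. All 77 passed the filter on low counts, as did 13560 of the 24421 genes. Levels of 3 genes describe the sorted nuclei, but without an unsorted library they cannot show enrichment. Slc17a7, the vesicular glutamate transporter of cortical excitatory neurons, had 2279 ± 357 CPM in CFA libraries and 2144 ± 177 CPM in saline libraries (SD, n = 3 each). Foxp2 had 29.2 ± 5.50 CPM in CFA libraries and 33.8 ± 8.61 CPM in saline libraries. Gad1, the GABA-synthesizing enzyme of inhibitory neurons, had 64.9 ± 18.8 CPM in CFA libraries and 60.2 ± 12.4 CPM in saline libraries. Gad1 was far below Slc17a7 and above Foxp2 in CPM, a scale that does not allow for transcript length.

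Among themselves the members spanned a 15.0-fold range of level per length (CPM per kilobase of exon, mean of 6 libraries), from 7.12 to 107. Their median was 33.2, against 10.1 over all genes tested. The quartiles were 22.9 and 51.4, and 54 of 77 were within 2-fold of the median. The median was 36.9 for large-subunit genes and 32.0 for small-subunit genes. Genes with bacterial numbers had a median of 38.2, and those with mitochondrial numbers 29.8.

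The highest level per length was that of Mrps12, a protein of the decoding centre in bacteria, with 107 ± 19.4 CPM per kb in CFA and 106 ± 19.2 in saline libraries (SD, n = 3 each). Mrps26, a small-subunit protein of mitochondria, followed with 106 ± 19.7 CPM per kb in CFA and 100 ± 16.4 in saline libraries. Mrpl20, a bacterial-type protein of the large subunit, had 101 ± 20.9 CPM per kb in CFA and 105 ± 23.2 in saline libraries. These 3 were closer to each other than the spread of any of them. Mrpl42, a large-subunit protein of mitochondria, had 92.5 ± 14.1 CPM per kb in CFA and 87.7 ± 33.3 in saline libraries. Mrpl4, which in bacteria lines the exit tunnel of the nascent chain, had 86.3 ± 9.63 CPM per kb in CFA and 83.1 ± 7.09 in saline libraries. The 5 highest members thus overlapped in their spread across libraries, which takes in differences between libraries that members share. Compared within each library, Mrps12 lay above Mrpl4 in all of them.

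At the low end, Mrpl1, the protein of the mobile L1 stalk in bacteria, had 7.51 ± 0.0677 CPM per kb in CFA and 6.72 ± 1.55 in saline libraries. Mrpl17, a large-subunit protein of bacterial type, had 7.26 ± 0.953 CPM per kb in CFA and 7.77 ± 1.38 in saline libraries. Mrps25, a small-subunit protein of mitochondria, had 7.91 ± 0.861 CPM per kb in CFA and 8.01 ± 1.31 in saline libraries. These 3 did not differ beyond their spread. Mrpl19 and Mrpl15, both large-subunit proteins of bacterial type, had 8.91 ± 0.834 and 10.4 ± 1.72 CPM per kb in CFA libraries, and 8.02 ± 1.34 and 8.95 ± 2.28 in saline libraries. These 5 genes also had the longest exon models of the members, 4188 to 6712 bases, so the length that divides their counts is itself the largest in the group. Whether the whole of each model is used in these neurons was not tested.

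**Figure D2:**
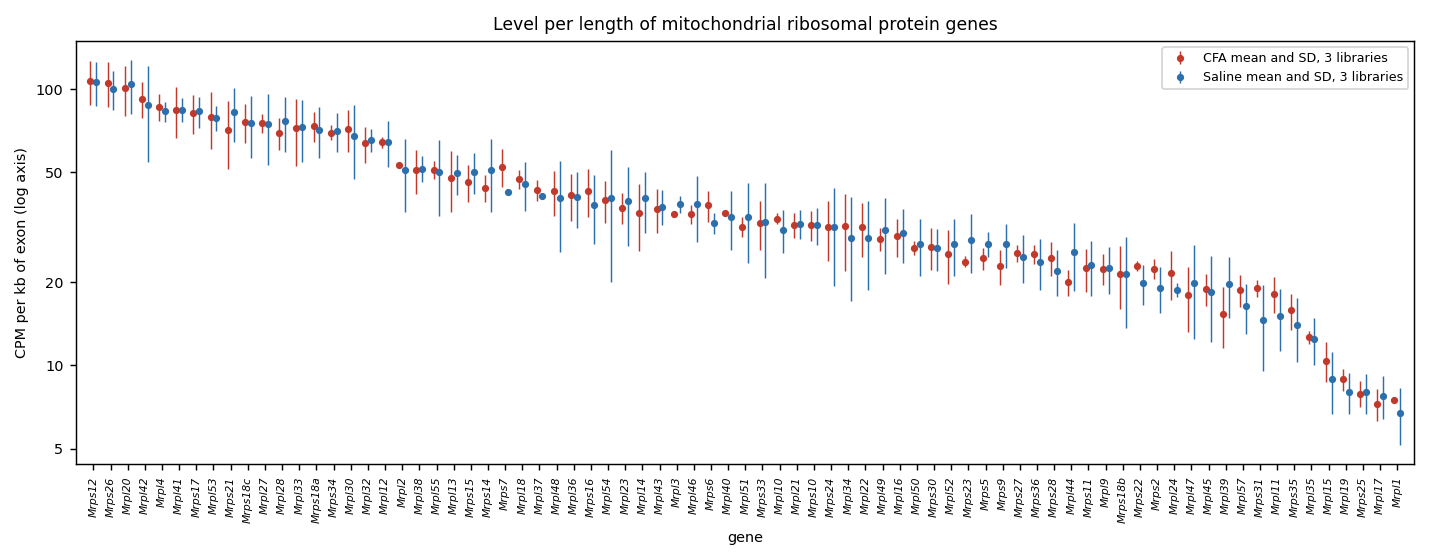
Level per length (CPM per kb of exon, log axis) of each of the 77 genes along the x axis, ordered by the mean of 6 libraries, with points for the mean and lines for the SD of the 3 CFA libraries (left of each pair) and the 3 saline libraries (right). Means over all libraries run from 107 for Mrps12 to 7.12 for Mrpl1, and the 5 genes at the low end stand below the rest.

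The levels stood between those of other groups on which mitochondria depend. On the same scale of CPM per kb, the median was 59.4 for cytosolic ribosomal proteins, 134 for the nuclear-encoded subunits of complex I and 206 for those of ATP synthase. It was 12.1 for factors that assemble the mitochondrial ribosome, 12.4 for mitochondrial translation factors, 11.2 for mitochondrial aminoacyl-tRNA synthetases and 7.90 for proteins that transcribe and replicate mitochondrial DNA.

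The members include 3 paralogs of the bacterial S18 protein, which sit at different places of the ribosome. Mrps18c had 76.3 ± 12.3 CPM per kb in CFA and 75.8 ± 19.1 in saline libraries, and Mrps18a 73.5 ± 9.12 in CFA and 71.4 ± 14.8 in saline libraries. Mrps18b was the low one of the 3, with 21.5 ± 5.49 CPM per kb in CFA and 21.4 ± 7.71 in saline libraries. In every library Mrps18b lay below both of its paralogs. Mrpl36, the smallest bacterial-type protein of the large subunit, had 41.4 ± 8.04 CPM per kb in CFA and 40.8 ± 9.39 in saline libraries. Mrps36, which is no longer counted as ribosomal, had 25.3 ± 1.93 CPM per kb in CFA and 23.8 ± 4.93 in saline libraries. GENCODE vM21 names 5 pseudogenes for 3 members: Mrps36, Mrpl48 and Mrpl23. The counts of those 3 are uncertain to the extent that reads map to the copies.

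The comparison of CFA with saline asks whether nuclei from mice given CFA hold different amounts of these transcripts. No measure of pain or inflammation in these mice was available here. No member was called higher or lower at 0.05 by the quasi-likelihood test of edgeR, adjusted over 13560 genes by the Benjamini-Hochberg method. The same test called 0 genes in the whole table (0%), with a smallest adjusted p of 0.91. At an unadjusted p under 0.05 there were 0 members, against 437 genes (3.22%) in the table. DESeq2 called 5 genes and no member. The smallest unadjusted p of a member was 0.132 (Mrps7), and the smallest adjusted p of a member was 0.99997. Fold changes are CFA over saline: 39 were positive and 38 negative, with a median log2 value of 0.0072, against 49.8% positive and a median of -0.0011 over all genes tested. Scaling by the RLE method gave a median of -0.0041 with 36 positive, so the median has no stable sign.

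The fold changes were small. They ran from -0.37 (Mrpl44) to 0.39 (Mrps31) on the log2 scale. The median size was 0.075, against 0.128 among the 8655 genes tested in the members' range of mean level. The 95% interval of each of the 77 members lay within a 2-fold change either way, which held for 69.4% of all genes tested, and all contained 0. For 39 members the interval lay within 1.5-fold. The lowest bound was -0.90 (Mrpl39) and the highest 0.94 (Mrps31), and with 3 libraries a group changes inside a member's interval were not excluded. Standard errors were 0.171 to 0.323 with a median of 0.221, against 0.245 over all genes tested. All genes tested take in genes below the members' range of level. The median SD within a group (log2 CPM) was 0.254 for members, 0.261 for genes in that range and 0.307 for all genes tested. Large-subunit genes had 25 positive and 25 negative values (median 0.0025), and small-subunit genes 13 and 13 (median 0.0036). Genes with bacterial numbers had 23 positive and 21 negative values, and those with mitochondrial numbers 16 and 17.

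**Figure D3:**
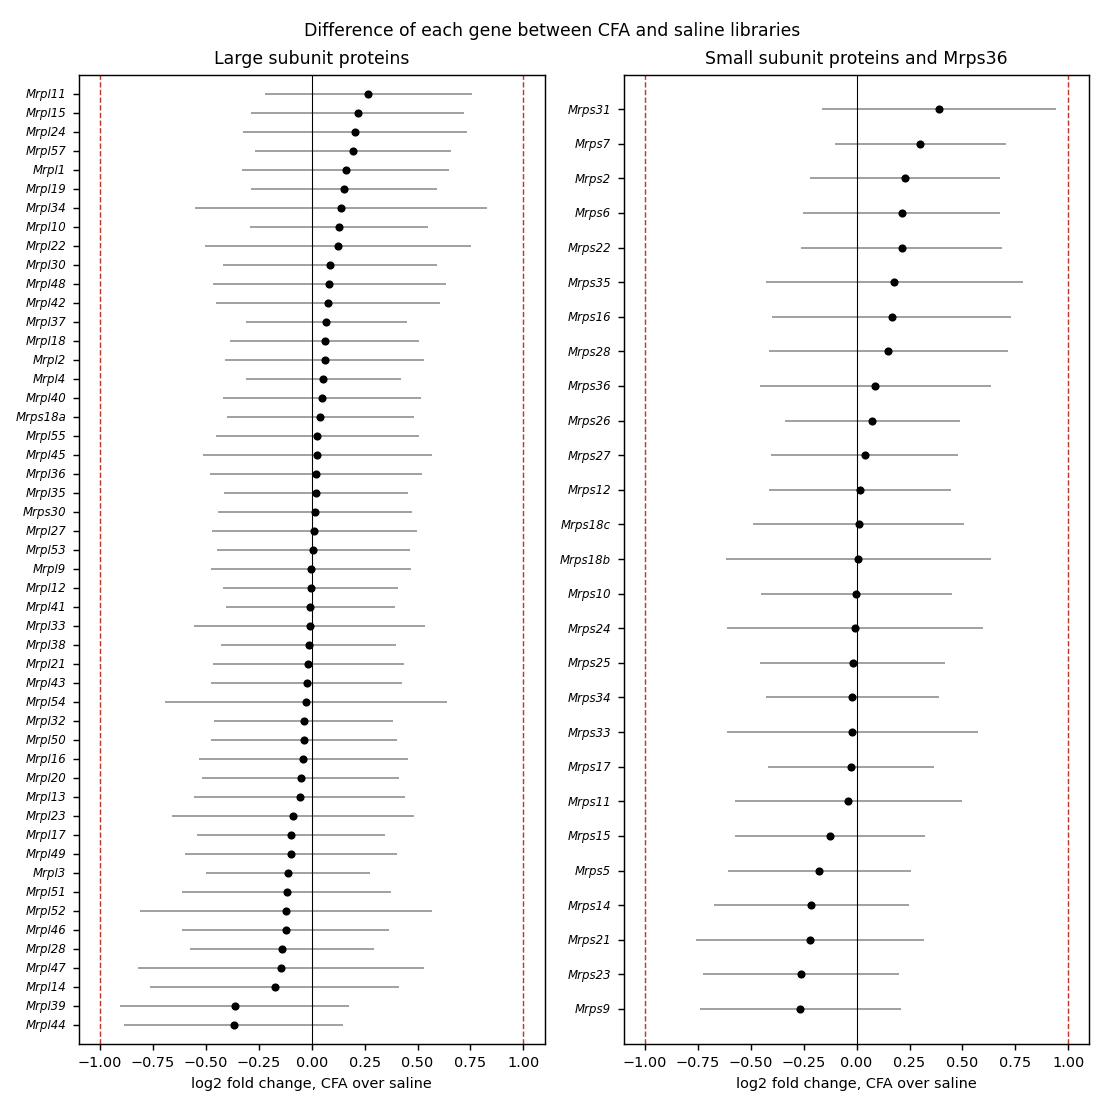
Log2 fold change (CFA over saline, points) of each of the 77 genes with its 95% interval from the edgeR fit (lines), for large-subunit proteins on the left and small-subunit proteins with Mrps36 on the right. Dashed lines mark a 2-fold change either way; every interval contains 0 and lies between -0.90 and 0.94.

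The 6 positive members with the smallest p were Mrps7, Mrps31, Mrpl11, Mrps2, Mrps6 and Mrps22, given here as values and not as changes. Mrps7, a protein of the small subunit's head in bacteria, had 57.2, 78.6 and 72.4 CPM in CFA libraries, against 57.7, 54.8 and 56.3 CPM in saline libraries. CFA 1 lay among the saline values and the other 2 CFA libraries above them, and the log2 fold change was 0.30 ± 0.19 (SE). Mrps31, a small-subunit protein of mitochondria, had 28.6, 27.8 and 31.7 CPM in CFA libraries, against 31.3, 18.5 and 17.3 CPM in saline libraries. Its saline 1 value lay among the CFA values and the other 2 saline values below them, and the log2 fold change was 0.39 ± 0.26 (SE). Mrpl11, at the base of the bacterial stalk that receives elongation factors, had 44.2, 59.7 and 53.5 CPM in CFA libraries, against 51.9, 47.9 and 30.9 CPM in saline libraries. The groups overlapped, with saline 3 the lowest. Mrps2, Mrps6 and Mrps22 had log2 fold changes of 0.23 ± 0.21, 0.21 ± 0.22 and 0.21 ± 0.22 (SE).

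On the negative side these were Mrpl44, Mrpl39, Mrps23, Mrps9, Mrps14 and Mrps5. Mrpl44, a large-subunit protein related to ribonuclease III, had 26.5, 26.9 and 31.9 CPM in CFA libraries, against 43.9, 41.1 and 25.03 CPM in saline libraries. Saline 1 and saline 2 were above all CFA values and saline 3 below them, and the log2 fold change was -0.37 ± 0.24 (SE). Mrpl39, a large-subunit protein of mitochondria, had 20.97, 29.5 and 34.9 CPM in CFA libraries, against 46.8, 34.1 and 28.9 CPM in saline libraries. Its groups overlapped, with CFA 1 the lowest and saline 1 the highest, and the log2 fold change was -0.36 ± 0.25 (SE). Mrps14, a small-subunit protein of bacterial type, had 75.5, 93.6 and 91.4 CPM in CFA libraries, against 132, 96.7 and 72.7 CPM in saline libraries. All CFA values lay between the saline extremes, and the log2 fold change was -0.21 ± 0.22 (SE). Mrps9, Mrps23 and Mrps5 had log2 fold changes of -0.27 ± 0.22, -0.26 ± 0.22 and -0.18 ± 0.20 (SE).

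Mrpl3, a core protein of the large subunit in bacteria, was the one member whose groups did not overlap, against 7.51% of all genes tested (3.97% lower in CFA and 3.55% higher). It had 54.4, 55.0 and 53.4 CPM in CFA libraries, against 63.4, 56.3 and 56.3 CPM in saline libraries. The gap between the groups was small beside the distance of saline 1 from the other saline libraries. Its log2 fold change was -0.11 ± 0.18 (SE), and with scaling by library totals 0 members were without overlap, against 7.58% of all genes tested.

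The pair of head-to-head members on chromosome 7, whose shared stretch is printed above, showed no difference beyond the spread. Mrps11 had 23.4 ± 4.11 CPM in CFA libraries and 24.1 ± 5.44 CPM in saline libraries, and Mrpl46 had 36.3 ± 2.80 CPM in CFA libraries and 39.5 ± 10.6 CPM in saline libraries (SD, n = 3 each). Sars2, beside Mrps12, had 22.7 ± 3.61 CPM in CFA libraries and 23.5 ± 1.47 CPM in saline libraries. Peo1, beside Mrpl43, had 20.3 ± 3.37 CPM in CFA libraries and 17.3 ± 9.02 CPM in saline libraries, with Mrpl43 itself at 44.8 ± 8.12 CPM in CFA libraries and 45.6 ± 6.62 CPM in saline libraries. Ptcd2, beside Mrps27, had 51.1 ± 9.34 CPM in CFA libraries and 49.8 ± 9.63 CPM in saline libraries, with Mrps27 at 47.0 ± 3.37 CPM in CFA libraries and 45.8 ± 9.17 CPM in saline libraries. Mrpl32 had 49.0 ± 7.26 CPM in CFA libraries and 50.3 ± 4.76 CPM in saline libraries. Its neighbour Psma2 had 128 ± 16.6 CPM in CFA libraries and 137 ± 42.5 CPM in saline libraries. Helq, beside Mrps18c, had 38.5 ± 4.81 CPM in CFA libraries and 49.6 ± 22.7 CPM in saline libraries.

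Exon sequence was shared with another gene model by 10 members (13.0%, against 13.1% of all models), in 7 cases on the opposite strand only. The library kits do not mark strand, and the sources used here do not give how shared bases were counted. The most abundant of the 10 was Mrpl41, which shares 1002 bases with Dph7 on the opposite strand. It had 189, 252 and 171 CPM in CFA libraries, against 224, 206 and 184 CPM in saline libraries, and the groups overlapped. Mrpl53 shares 14 bases with Ccdc142 on the same strand and had 49.1 ± 11.5 CPM in CFA libraries and 48.9 ± 5.17 CPM in saline libraries. Mrpl49 shares 89 bases with Syvn1 on the opposite strand and had 49.6 ± 4.74 CPM in CFA libraries and 53.1 ± 16.2 CPM in saline libraries. Without the 10, the median log2 fold change of the other 67 was -0.0017.

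The members differed more between libraries of one group than between the groups. Their summed level was 3160, 3895 and 3599 CPM in CFA libraries, against 4187, 3459 and 2975 CPM in saline libraries. Saline 1 was the highest and saline 3 the lowest, with all CFA values between them, and the group means were 3551 ± 370 CPM in CFA libraries and 3540 ± 610 CPM in saline libraries (SD, n = 3 each). The members tended toward one order: saline 1 was the highest of the 6 libraries for 43 members (55.8%), against 19.0% of all genes tested. The rest were highest in CFA 2 (16), CFA 3 (10), saline 2 (6), CFA 1 (1) or saline 3 (1). Saline 3 was the lowest for 47 (61.0%), against 23.7%. Among the 3 CFA libraries alone, CFA 1 was the lowest for 62 members (80.5%), against 36.1% of all genes tested. CFA 2 was the highest of the 3 for 47 (61.0%), against 35.9%. Both subunits kept the same proportion, since small-subunit genes made up 32.5, 32.3 and 32.1% of member CPM in CFA libraries and 32.5, 32.1 and 32.4% in saline libraries.

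**Figure D4:**
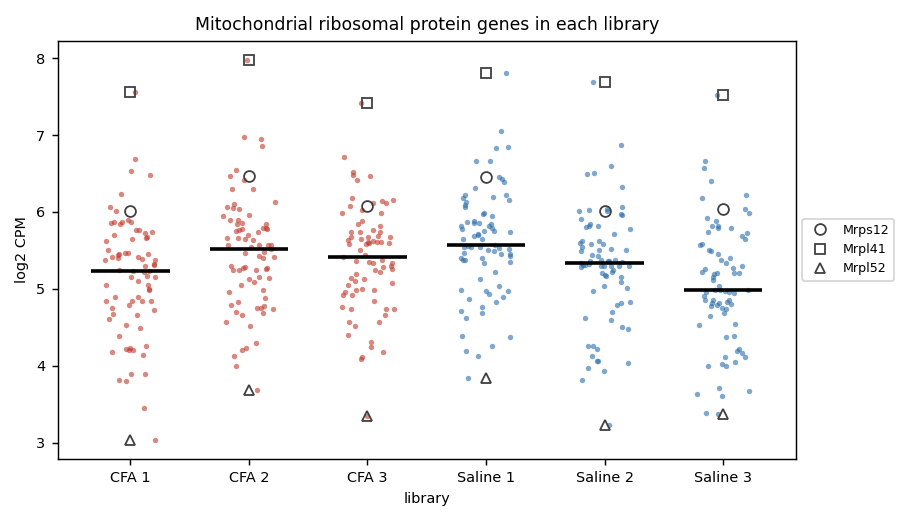
Log2 CPM of the 77 mitochondrial ribosomal protein genes (points) in each library, with the median as a bar and open symbols at the values of Mrps12, Mrpl41 and Mrpl52. The horizontal scatter of points within a library carries no meaning, and the saline group holds both the highest median (saline 1) and the lowest (saline 3).

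The median SD of a member within a group was 0.254 (log2 CPM), and it was 0.181 after subtraction of the members' mean in each library. It fell for 66 of 77 members on this subtraction. Counting error alone would give a median of 0.067. The median SD was 0.206 in CFA and 0.317 in saline libraries, and the saline SD was the larger for 58 members, against 64.3% of all genes tested. Omission of saline 1 and of saline 3 moved the members' median in opposite directions from the 0.0072 of all libraries. Without saline 1 the median log2 fold change of members was 0.17 with 63 positive, and without saline 3 it was -0.10 with 18 positive. Without saline 1, 14 members (18.2%) had no overlap between groups, against 17.4% of all genes tested, and without saline 3 there were 11 (14.3%), against 22.5%. No member was called either way.

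Several other gene lists had a like order of the saline libraries. Saline 1 was the highest saline library for 60 of 77 members, against 32.2% of all genes tested. It was the highest for 73 of 77 cytosolic ribosomal, 33 of 35 complex I and 15 of 16 ATP synthase genes. Counts were 8 of 20 for mitochondrial aminoacyl-tRNA synthetases, 12 of 27 for assembly factors and 4 of 15 for translation factors. They were 4 of 14 for proteins of mitochondrial DNA transcription and replication and 2 of 7 for neuronal identity genes. For RNAs that stay in the nucleus the count was 0 of 7, and for cytoplasm-rich neuronal transcripts 7 of 14. Markers of other cell classes had 10 of 14 microglial, 9 of 12 oligodendrocyte, 7 of 12 inhibitory, 3 of 4 vascular and 3 of 15 astrocyte genes. Saline 3 was the lowest saline library for 57 of 77 members, against 37.5% of all genes tested. It was the lowest for 47 of 77 cytosolic ribosomal, 33 of 35 complex I and 16 of 16 ATP synthase genes. Cell-class counts were 9 of 12 oligodendrocyte, 6 of 14 microglial, 6 of 12 inhibitory, 2 of 4 vascular and 4 of 15 astrocyte genes. In the CFA group, CFA 1 was the lowest for 62 of 77 members, against 36.1% of all genes tested. This held for 69 of 77 cytosolic ribosomal, 35 of 35 complex I and 16 of 16 ATP synthase genes. Cell classes differed: 1 of 14 microglial, 0 of 12 oligodendrocyte, 3 of 12 inhibitory, 0 of 4 vascular and 2 of 15 astrocyte genes. Genes with short exon models moved much as the members did. The 891 tested genes no longer than the members' median and outside every list had median log2 deviations from the 6-library mean of -0.159, 0.194 and 0.009 in CFA libraries and 0.244, -0.046 and -0.181 in saline libraries. Those of the members were -0.158, 0.151 and 0.061 in CFA and 0.263, -0.003 and -0.271 in saline libraries. The 38 members longer than the median deviated by -0.136, 0.090 and 0.040 in CFA libraries and 0.195, 0.043 and -0.249 in saline libraries. The 12485 other tested genes longer than that median deviated by 0.021, 0.008 and 0.032 in CFA and -0.011, 0.012 and 0.030 in saline libraries. The 39 members at or below it deviated by -0.195, 0.231 and 0.061 in CFA and 0.339, -0.109 and -0.293 in saline libraries.

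RNAs that stay in the nucleus, such as Malat1 and Meg3, took 2.90, 3.24 and 2.16% of counts in CFA libraries and 2.51, 2.52 and 4.68% in saline libraries, with saline 3 the highest. Neuronal transcripts that are rich in cytoplasm had a mean level of 9.73, 9.86 and 9.92 log2 CPM in CFA libraries and 10.0, 9.95 and 9.46 in saline libraries, with saline 3 the lowest. The nuclear share of counts was nearly equal in saline 1 and saline 2, whose summed member levels were 4187 and 3459 CPM. The mean level of the nuclear RNAs was 8.37, 8.47 and 8.30 log2 CPM in CFA libraries and 7.95, 8.42 and 9.38 in saline libraries. On that scale the saline libraries stood in the reverse of the members' order. By both measures the nuclear RNAs were the highest of the CFA group in CFA 2, where the members were highest too. The part of transcript length and of nuclear RNA in the members' level was not tested. In bulk libraries, fewer cells of a type and less RNA per cell cannot be told apart.

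**Figure D5:**
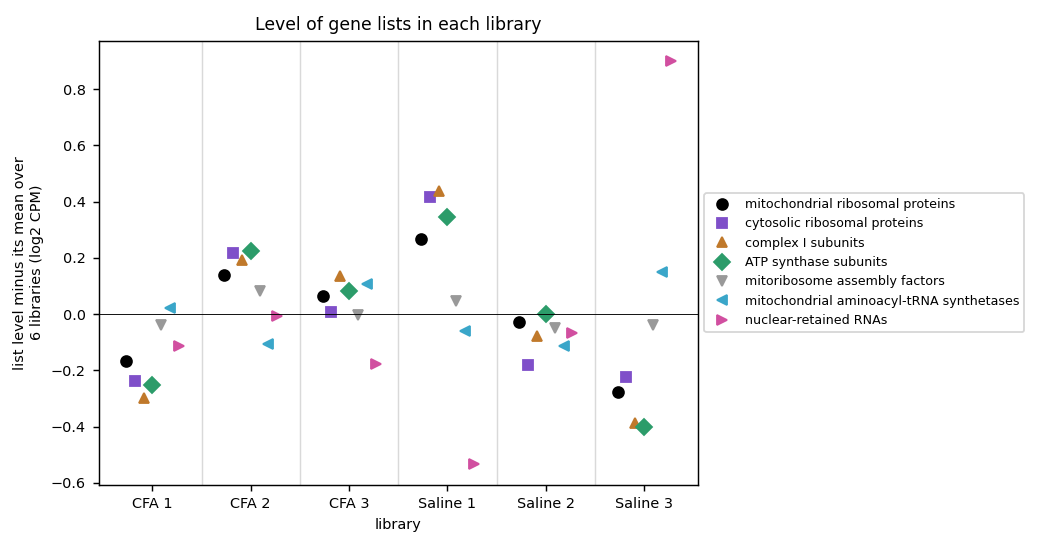
Mean log2 CPM of 7 gene lists in each library, minus the list's own mean over the 6 libraries, CFA libraries left of saline. Mitochondrial and cytosolic ribosomal proteins, complex I and ATP synthase are highest in saline 1 and low in CFA 1 and saline 3, whereas nuclear-retained RNAs are highest in saline 3.

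None of the related lists had a called gene, so their members are given as values. Cytosolic ribosomal proteins, which build the ribosome that makes the mitochondrial ones, had 30 positive and 47 negative log2 fold changes among 77 tested (median -0.03), and Rps12 (29.2 ± 6.52 CPM in CFA libraries and 21.7 ± 4.34 CPM in saline ones) and Rps27l (12.6 ± 3.75 CPM in CFA libraries and 16.2 ± 2.71 CPM in saline ones) had the smallest p. Complex I subunits had 17 and 18 (median -0.0041) and ATP synthase subunits 9 and 7 (median 0.014). The smallest p in these belonged to Ndufb2 and Ndufc1, accessory subunits of complex I, at -0.20 ± 0.25 each, and to Atp5k and Atp5f1 of ATP synthase, at 0.12 ± 0.26 and 0.11 ± 0.23 (log2, SE). Of the 6 mitoribosomal proteins under other symbols, 3 were positive and 3 negative. Chchd1, a small-subunit protein, had a log2 fold change of 0.28 ± 0.24, and Ict1, a peptide-release enzyme built into the large subunit, -0.20 ± 0.24 (SE).

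The 27 assembly factors had 16 positive and 11 negative values (median 0.040). Fastkd5, which processes mitochondrial RNA, had 10.98, 11.1 and 12.9 CPM in CFA libraries, against 13.1, 24.3 and 17.5 CPM in saline libraries. Its groups did not overlap, but edgeR gave an adjusted p of 0.99997 with a log2 fold change of -0.65 ± 0.29 (SE). Rbfa, which helps mature the small-subunit RNA, was at 0.29 ± 0.24 (log2, SE). The 15 translation factors had 5 positive and 10 negative values (median -0.02). Mtrf1, a release factor, was at -0.45 ± 0.29 and Mtif2, an initiation factor, at -0.29 ± 0.21 (log2, SE).

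Mitochondrial aminoacyl-tRNA synthetases, which charge the tRNAs for this ribosome, had 7 positive and 13 negative values of 20 (median -0.059). Pars2, for proline, had 19.6, 16.3 and 16.7 CPM in CFA libraries, against 13.2, 10.1 and 10.7 CPM in saline libraries. All CFA values were above all saline values, with a log2 fold change of 0.63 ± 0.27 (SE) and an adjusted p of 0.99997 from edgeR. The 14 proteins of mitochondrial DNA transcription and replication had 7 and 7 (median 0.025). Tfam, which packages mitochondrial DNA and starts its transcription, was at 0.41 ± 0.23, and its partner Tfb2m at 0.36 ± 0.24 (log2, SE).

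Markers of other cell classes had no called gene. The 14 microglial markers had 12 positive and 2 negative values (median 0.49), and their summed level was 147, 177 and 113 CPM in CFA libraries and 143, 93.0 and 98.9 CPM in saline libraries. Csf1r, the receptor of microglial growth factors, had 11.8 ± 5.91 CPM in CFA libraries and 3.83 ± 3.16 CPM in saline ones, and Fcrls, a microglial surface receptor, 2.60 ± 0.883 CPM in CFA libraries and 1.05 ± 0.439 CPM in saline ones. The 15 astrocyte markers had 9 positive and 6 negative values (median 0.26), with 651, 779 and 558 CPM in CFA libraries and 557, 632 and 606 CPM in saline libraries. Aldoc, a glycolytic enzyme of astrocytes, had 176 ± 30.0 CPM in CFA libraries and 125 ± 14.1 CPM in saline ones, and Fgfr3, a growth factor receptor, 5.84 ± 2.01 CPM in CFA libraries and 2.09 ± 1.22 CPM in saline ones. The 12 tested oligodendrocyte markers had 7 and 5 (median 0.083), with 518, 436 and 339 CPM in CFA libraries and 463, 365 and 365 CPM in saline libraries. Olig1, a transcription factor of this lineage, had 20.7 ± 3.11 CPM in CFA libraries and 12.4 ± 1.81 CPM in saline ones, and Gpr17, a receptor of its precursors, 4.00 ± 1.38 CPM in CFA libraries and 0.514 ± 0.493 CPM in saline ones. The 12 tested inhibitory markers had 9 and 3 (median 0.22), with 219, 221 and 139 CPM in CFA libraries and 214, 162 and 141 CPM in saline libraries. Adarb2, an RNA-binding protein of interneurons, had 2.06 ± 1.02 CPM in CFA libraries and 5.19 ± 2.03 CPM in saline ones, and Pvalb, a calcium buffer, 12.2 ± 8.18 CPM in CFA libraries and 6.94 ± 1.59 CPM in saline ones. Only 4 of 10 vascular markers passed the filter, and all 10 summed to 9.90, 7.58 and 4.81 CPM in CFA libraries and 17.9, 5.84 and 4.36 CPM in saline libraries. Vtn had 1.24 ± 0.391 CPM in CFA libraries and 2.69 ± 3.97 CPM in saline ones, Rgs5 2.70 ± 1.41 CPM in CFA libraries and 2.97 ± 0.449 CPM in saline ones, and Cdh5, a junction protein of endothelium, had no count in any library. Within the saline group the summed microglial, oligodendrocyte, inhibitory and vascular levels were highest in saline 1, as the members' was. Their part in the members' levels was not tested.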

How the data were processed

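The data are 6 libraries from sorted nuclei, 3 CFA and 3 saline. Per the labels' protocols, polyadenylated RNA was converted with Smart-seq V4 (9 PCR cycles) and 300 ng of cDNA entered Nextera XT. The authors deposited raw counts per gene with exon coordinates and length. Per the submitters' processing notes, reads were handled on mm10 with HISAT2 2.2.1, featureCounts 2.0.1, SAMtools 1.13, edgeR 3.32.1 and Trim Galore. The sources used here do not give settings for strand and multiply mapped reads.

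From these counts, all genes were fitted with edgeR 4.0.16 (R 4.3.3): quasi-likelihood test, TMM, filterByExpr and Benjamini-Hochberg adjustment over 13560 genes at 0.05. Log2 fold changes are CFA minus saline, with 95% intervals from the fit. Log2 CPM used a prior count of 2. Common biological variation was 26.8%. All library pairs differed beyond sampling noise (chi-square per degree of freedom of at least 16.4). The fit was tested on simulated data.

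Members and gene lists were chosen with earlier results of these data known. Named members were the 6 with the smallest p in each direction, those without overlap, the 5 highest and 5 lowest per length, the S18 paralogs, Mrpl36 and Mrps36, and the 3 most abundant of those that share exons. Mrps11, Mrpl46, Mrpl43, Mrps27, Mrpl32 and Mrpl52 were chosen after their values were seen. Of each related list the 2 genes with the smallest p were named, except 1 gene that is not reported here. Alternatives were RLE and library-total scaling, 2 filters, DESeq2 1.42.0, limma-voom (limma 3.58.1), the likelihood ratio test, a replicate block, omission of members that share exons, and omission of each library.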

Additional observations from a re-analysis of the deposited data

How the results depend on the processing

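No member was called under any alternative run, and the median log2 fold change of members stayed within the spread between libraries, from -0.10 to 0.17 with one library left out. Genes called in the whole table were 0, against 9 without a low-count filter, 5 with DESeq2, 11 with the likelihood ratio test and 0 to 5 with one library left out (5 without saline 3). Same-numbered libraries did not deviate together (r = -0.079, 0.025 and -0.069 over all genes, and -0.316, -0.173 and -0.592 over members). The labels state no pairing, and with 3 libraries a group these values cannot decide whether the numbers mark pairs. With the replicate number as a block, 6 genes and 0 members were called, and the median of members was 0.028. Members without overlap numbered 1 (7.51%), against 0 with library totals (7.58%), 2 without a low-count filter (7.01%), 2 with at least 5 CPM in 3 libraries (7.34%) and 2 to 14 with one library left out (13.4 to 22.5%), where the percentages are shares of all genes tested without overlap under the same setting. The level per length was 32.35 to 35.61 with one library left out.

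Of 518 values of 37 named members under an alternative, 465 kept direction and side, 53 changed sign and 0 became calls (smallest adjusted p 0.581, by the alternatives' own tests). Sign changes with RLE, and with DESeq2 after it, were in Mrps18b (-0.00155 and -0.001248), Mrps18c (-0.00248 and -0.002463) and Mrpl53 (-0.004133 and -0.004124). Mrpl53 was also at -0.01131 with limma-voom and at -0.01258 with the replicate block. With one library left out, ranges that crossed 0 were these: Mrps14 -0.3997 to 0.03175, Mrps12 -0.1397 to 0.1735, Mrps26 -0.08896 to 0.2104, Mrpl20 -0.1905 to 0.1264, Mrpl42 -0.1081 to 0.4245, Mrpl4 -0.04245 to 0.1289, Mrpl1 -0.01767 to 0.2715, Mrps25 -0.1478 to 0.0637, Mrps18a -0.1148 to 0.1686, Mrps18b -0.1648 to 0.3403, Mrps18c -0.1619 to 0.2, Mrpl36 -0.139 to 0.1887, Mrps36 -0.02781 to 0.2642, Mrpl41 -0.1873 to 0.1082, Mrpl49 -0.3262 to 0.0874, Mrpl53 -0.2018 to 0.103, Mrps11 -0.2003 to 0.1189, Mrpl46 -0.3018 to 0.08388, Mrpl43 -0.1712 to 0.08563, Mrps27 -0.09356 to 0.1927, Mrpl32 -0.1667 to 0.03911 and Mrpl52 -0.3003 to 0.07922. The cause was not tested. With 3 libraries a group, changes inside the interval of each member were not excluded.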
